A study of Homo sapiens with 18 samples.

Results

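Oxidative phosphorylation is the process by which mitochondria turn electrons from nutrients into ATP. Complexes I and II feed electrons into the inner mitochondrial membrane, complexes III and IV pass them on to oxygen, and complex V, the ATP synthase, uses the resulting proton gradient to make ATP. Most subunits are encoded in the nucleus and imported, and pluripotent stem cells carry the complexes although they also rely on glycolysis. The genes described here are the nuclear genes whose symbols name such a subunit, that is NDUFA, NDUFB, NDUFC, NDUFS and NDUFV genes (complex I), SDHA to SDHD (complex II), UQCR genes (complex III), COX4 to COX8 genes (complex IV) and ATP5 genes (complex V). They number 78 of the 10975 genes in the expression table: 38 of complex I, 4 of complex II, 9 of complex III, 12 of complex IV and 15 of complex V. They were chosen by symbol, from a table that holds only genes reaching 4 RPKM in some library. Earlier results of these data were known when the choice was made.

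The study asked how human embryonic stem cells respond over time to Wnt3a, a ligand of the WNT/β-catenin pathway, and what the WNT target SP5 does in that response. The cells were H1 (WA01, an established human embryonic stem cell line) without an engineered change. They were left without Wnt3a (0 h) or given 1 nM Wnt3a for 12, 24 or 48 h. Per the paper's methods, untreated cells received the storage buffer of Wnt3a. Ribosomal RNA-depleted total RNA was sequenced. The series has no untreated library at 12, 24 or 48 h, so Wnt3a and time in culture cannot be told apart. Each time in this first WT series is 1 library, so nothing below carries a p-value or a replicate error, and a change is a difference between 2 libraries. Expression is in RPKM, reads per kilobase scaled to the mapped reads of the library, which is corrected for length and so allows the levels of different genes to be set side by side.

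Changes are given against 0 h on the log2(RPKM + 1) scale, which understates the change of low genes. A gene was called at 2-fold, or at a smaller limit where RPKM plus 1 was at least 25% higher than at 0 h or at most 80% of it. RPKM of all listed genes summed to 386320 to 393761 in the 4 libraries, and the reads behind them are not given, so the depth is unknown. The cells showed the markers of their label. Of 8 pluripotent stem cell markers all were listed, 7 of them above 100 RPKM at every time and NANOG at 3.1 to 5.9. Their summed RPKM was 2715 at 0 h and 1909 at 48 h. The 8 mesendoderm and endoderm markers summed to 3.4, 126, 962 and 1059 RPKM at 0, 12, 24 and 48 h. None of 4 trophoblast or 6 muscle markers was listed, 1 of 3 neural markers was (NES, 140 to 189 RPKM), and 1 of 4 fibroblast markers was (COL1A1, 2.6 to 4.2 RPKM). Marker levels thus moved with time, and their part in the results that follow was not tested. In RNA from whole cultures, fewer cells of a type and less RNA per cell cannot be told apart.

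The oxidative phosphorylation genes were abundant and nearly level up to 24 h, then lower at 48 h. Their RPKM summed to 10214, 10174, 10042 and 8656 at 0, 12, 24 and 48 h. The 48 h sum was 84.7% of that at 0 h, where the sum over all listed genes was 98.5%. The most abundant genes weigh most in such a sum. From 0 to 48 h NDUFS5 went from 766 to 511 RPKM, and UQCRH with its copy UQCRHL from 1151 to 837. The median log2 change of the 78 genes at 48 h was -0.14, and 21 of them were higher than at 0 h. As a share of all listed RPKM the 78 genes made up 2.6%, 2.6%, 2.55% and 2.24% at 0, 12, 24 and 48 h. The sum at 48 h was lower than at 0 h in every complex, at 85.1% for complex I, 83.9% for complex II, 77.8% for complex III, 87.1% for complex IV and 86.3% for complex V. Among the 317 other listed genes with a short transcript (at most 1000 bases) and a mean RPKM of at least 30 the median log2 change at 48 h was -0.15, and the part of transcript length in the lower level at 48 h was not tested.

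Before the values, 6 promoter stretches are shown because nuclear respiratory genes are known for sharing a small set of promoter elements. They are the most abundant gene of each complex that has a RefSeq promoter entry and ATP5I, the gene with the largest change. Each line holds the 250 bases before the annotated start, 5′ to 3′ on the gene's strand, from RefSeq on GRCh38.p14, and capitals mark a match to NRF1 (GCGCA and GCGC with any base N between), ETS (CCGGAAG), YY1 (AAGATGGCG), GC box (GGGCGG) or CCAAT letters on either strand.
NDUFS6 (chr5:1801157-1801406, plus strand): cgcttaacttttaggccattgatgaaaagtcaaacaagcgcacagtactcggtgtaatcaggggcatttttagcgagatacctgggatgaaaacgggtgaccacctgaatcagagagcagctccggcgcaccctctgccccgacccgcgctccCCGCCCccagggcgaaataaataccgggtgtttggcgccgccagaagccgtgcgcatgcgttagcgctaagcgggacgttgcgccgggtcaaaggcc
SDHD (chr11:112086623-112086872, plus strand): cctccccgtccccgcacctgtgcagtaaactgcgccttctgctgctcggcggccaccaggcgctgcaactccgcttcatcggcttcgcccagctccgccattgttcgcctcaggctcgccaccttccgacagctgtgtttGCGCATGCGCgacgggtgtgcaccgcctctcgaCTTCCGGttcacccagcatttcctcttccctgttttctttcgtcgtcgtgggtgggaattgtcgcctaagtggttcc
UQCRH (chr1:46303448-46303697, plus strand): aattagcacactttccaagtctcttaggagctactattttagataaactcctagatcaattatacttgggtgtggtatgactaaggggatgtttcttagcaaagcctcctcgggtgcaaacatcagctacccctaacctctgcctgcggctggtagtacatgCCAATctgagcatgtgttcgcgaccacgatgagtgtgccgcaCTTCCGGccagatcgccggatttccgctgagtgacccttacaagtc
COX7C (chr5:86617691-86617940, plus strand): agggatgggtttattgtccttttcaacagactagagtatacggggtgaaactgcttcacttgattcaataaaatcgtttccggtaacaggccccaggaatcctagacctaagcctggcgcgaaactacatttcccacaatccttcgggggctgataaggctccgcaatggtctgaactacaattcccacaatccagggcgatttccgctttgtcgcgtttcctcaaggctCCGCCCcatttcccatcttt
ATP5A1 (chr18:46104228-46104477, minus strand): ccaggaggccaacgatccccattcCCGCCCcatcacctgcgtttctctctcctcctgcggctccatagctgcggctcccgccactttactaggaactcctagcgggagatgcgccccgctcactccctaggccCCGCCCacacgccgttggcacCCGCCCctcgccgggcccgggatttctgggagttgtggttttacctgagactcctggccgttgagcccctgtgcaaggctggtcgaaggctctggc
ATP5I (chr4:674277-674526, minus strand): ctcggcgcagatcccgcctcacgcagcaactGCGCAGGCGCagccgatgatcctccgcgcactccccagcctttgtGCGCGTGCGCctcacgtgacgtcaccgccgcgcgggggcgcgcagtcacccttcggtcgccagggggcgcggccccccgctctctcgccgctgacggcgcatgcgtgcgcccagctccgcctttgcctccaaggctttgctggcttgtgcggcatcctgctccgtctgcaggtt

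SDHD held NRF1 letters beginning 110 bases and ETS letters beginning 77 bases before its start, and ATP5I held NRF1 letters beginning 219 and 174 bases before. UQCRH held CCAAT letters 88 bases and ETS letters 46 bases before its start. COX7C, NDUFS6 and ATP5A1 held GC boxes, which are the letters known to be bound by SP1 and SP5, in this stretch. The motifs were then counted in RefSeq windows of 300 bases, from 250 before to 50 after a start, which 64 of the 78 genes had, with 77 windows among them. NRF1 letters stood in 18.2% of these windows, in 10.5% of the 12819 windows of listed genes and in 5.78% of all 35116 windows. ETS letters, which the GABP factor is known to bind, stood in 28.6%, 17.8% and 10.3%. YY1 letters stood in 13.0%, 3.67% and 1.75%. The GC box stood in 62.3%, 67.5% and 45.0% and the CCAAT letters in 31.2%, 35.3% and 34.6%. The GC box and CCAAT shares were thus close to those of all listed genes, and the NRF1, ETS and YY1 shares were above them. The windows of listed genes include those of the 64 genes. Matches in the 50 bases after a start were counted but are not among the bases shown. A match is a description of letters and says nothing of binding. The median change at 48 h was -0.11 over the 14 genes with NRF1 letters and -0.12 over those without, and -0.13 over the 21 genes with ETS letters against -0.12. It was 0.05 over the 9 genes with YY1 letters against -0.14, and -0.08 over the 41 with a GC box against -0.25. For the 21 with CCAAT letters it was -0.14 against -0.10. These splits were not matched for transcript length or level and were not made over all listed genes. A part of any motif in the change was not tested.

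Most of these genes stood well above the typical listed gene. The median of the mean RPKM over the 4 libraries was 65.3 for the 78 genes and 15.0 for all listed genes, and 74 of the 78 lay above the latter. Of the 500 most abundant genes 23 belonged to this group. The mean RPKM spanned 71.4-fold, from 10.1 for NDUFA10 to 717 for NDUFS5. The median RPKM at 0 h was 22.4 for complex II, 61.0 for complex I, 66.2 for complex III, 98.7 for complex V and 182 for complex IV. Complex II thus had the lowest and complex IV the highest median, and the ranges of all 5 complexes overlapped. The plot of RPKM by complex shows these levels.

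**Figure D1:**
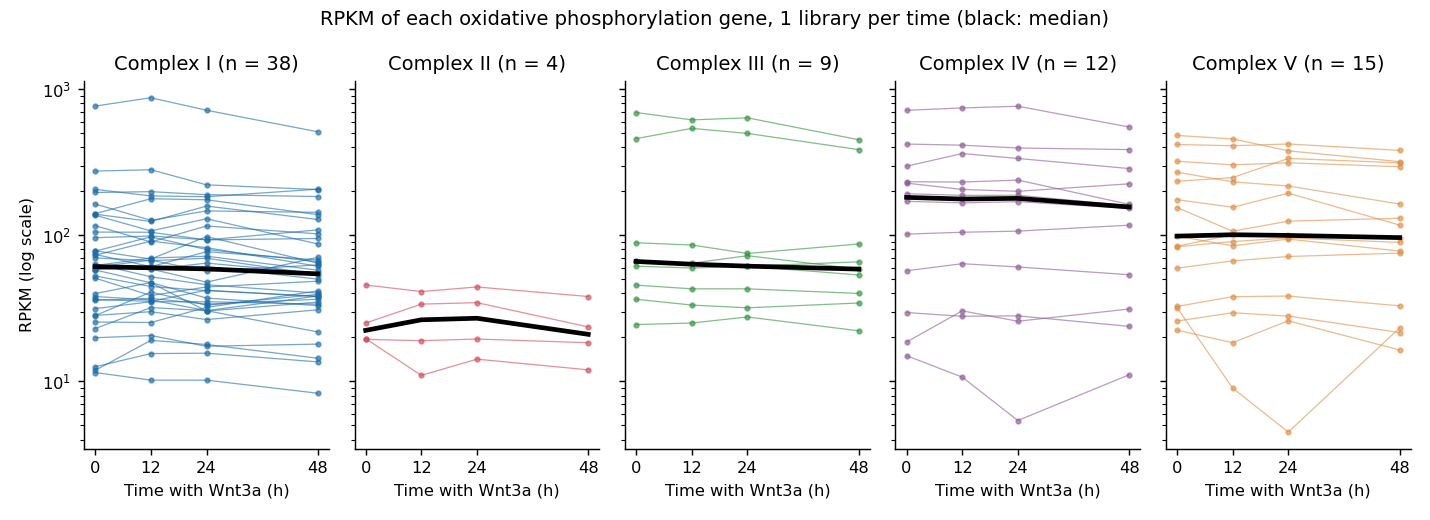
RPKM (log axis) of each oxidative phosphorylation gene at 0, 12, 24 and 48 h with Wnt3a, 1 panel for each complex, with 1 line per gene and the median in black. Most lines run nearly level to 24 h and dip at 48 h, and the line that drops to 4.5 RPKM at 24 h in complex V is ATP5I.

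At 12 h the median change of the 78 genes was -0.03, beside -0.01 over all listed genes, and at 24 h it was -0.01 on both. At 48 h it was -0.14 for the 78 genes, with quartiles of -0.30 and 0.01, and 0.00 for all listed genes, with quartiles of -0.27 and 0.27. The step from 24 to 48 h had a median of -0.17 and was downward for 55 of the 78, where the median step of all listed genes was 0.00. At 48 h 57 of the 78 genes (73.1%) had a lower RPKM than at 0 h, against 50.1% of all listed genes. The same counts were 45 at 12 h, against 51.1%, and 41 at 24 h, against 51.4%. For 42 of the 78 (53.8%) the 48 h library was the lowest of the 4, against 31.8% of all listed genes, and for 10 (12.8%) it was the highest, against 31.8%. The change at 48 h was at least 0.5 in size for 12 of the 78 genes, beside 24.6% of all listed genes.

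**Figure D2:**
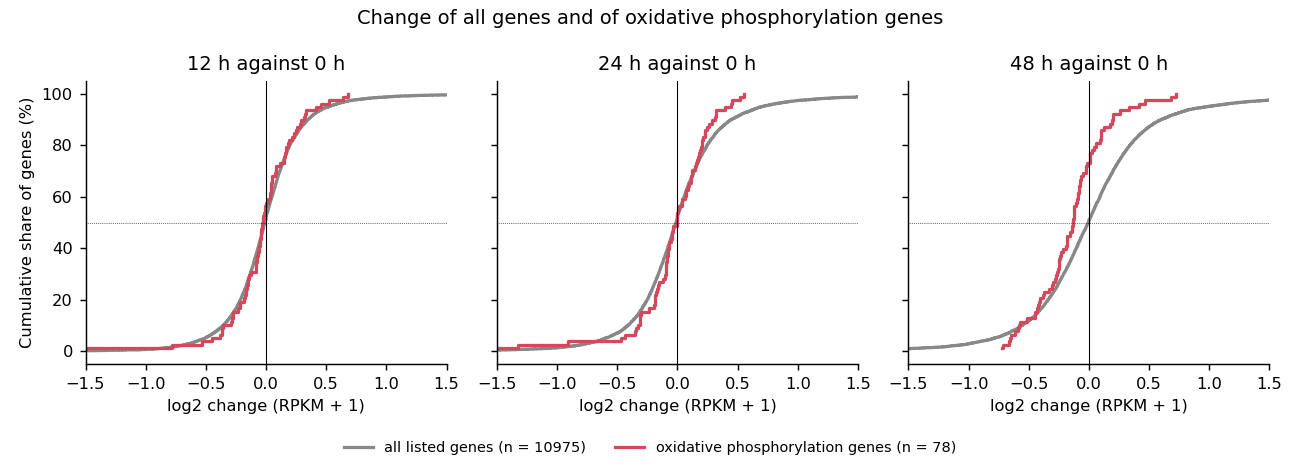
Cumulative share of genes (%) by log2 change of RPKM plus 1 against 0 h, for the 78 oxidative phosphorylation genes (red) and all 10975 listed genes (grey), at 12, 24 and 48 h. The curves lie close together at 12 and 24 h, and at 48 h the red curve crosses 0 at 73.1% and the grey curve at about 50.1%; changes past 1.5 in size lie outside the axes.

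Large changes were few. At 12 h 1 of the 78 genes, ATP5I, was at least 2-fold lower, beside 0.72% of all listed genes, and 0 were at least 2-fold higher, beside 1.22%. At 24 h ATP5I and COX6A1 were at least 2-fold lower, beside 1.35%, and 0 were higher, beside 2.62%. COX6A1 did not reach the limit with a pseudocount of 5. At 48 h 0 were lower, beside 2.95%, and 0 were higher, beside 4.86%. At the smaller limit, 8 genes were lower and 6 higher at 12 h, beside 11.7% and 11.4% of all genes, and 8 were lower and 5 higher at 24 h, beside 14.5% and 15.1%. With the libraries scaled by their median ratio 8 rather than 5 were higher at 24 h. At 48 h 19 genes were lower, which is 24.4% beside 21.1% of all genes, and 5 were higher, which is 6.41% beside 21.1%. The share past the smaller limit downward at 48 h was thus near that of all genes, and the share upward was below it. The range of all listed genes between the 5th and 95th percentiles at 48 h was -0.79 to 0.97 and held all 78 genes. The RPKM varied by less than 25% between the lowest and highest of the 4 libraries for 35 of the 78 (44.9%), against 30.5% of all listed genes, and for 7 of the 9 genes of complex III.

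**Figure D3:**
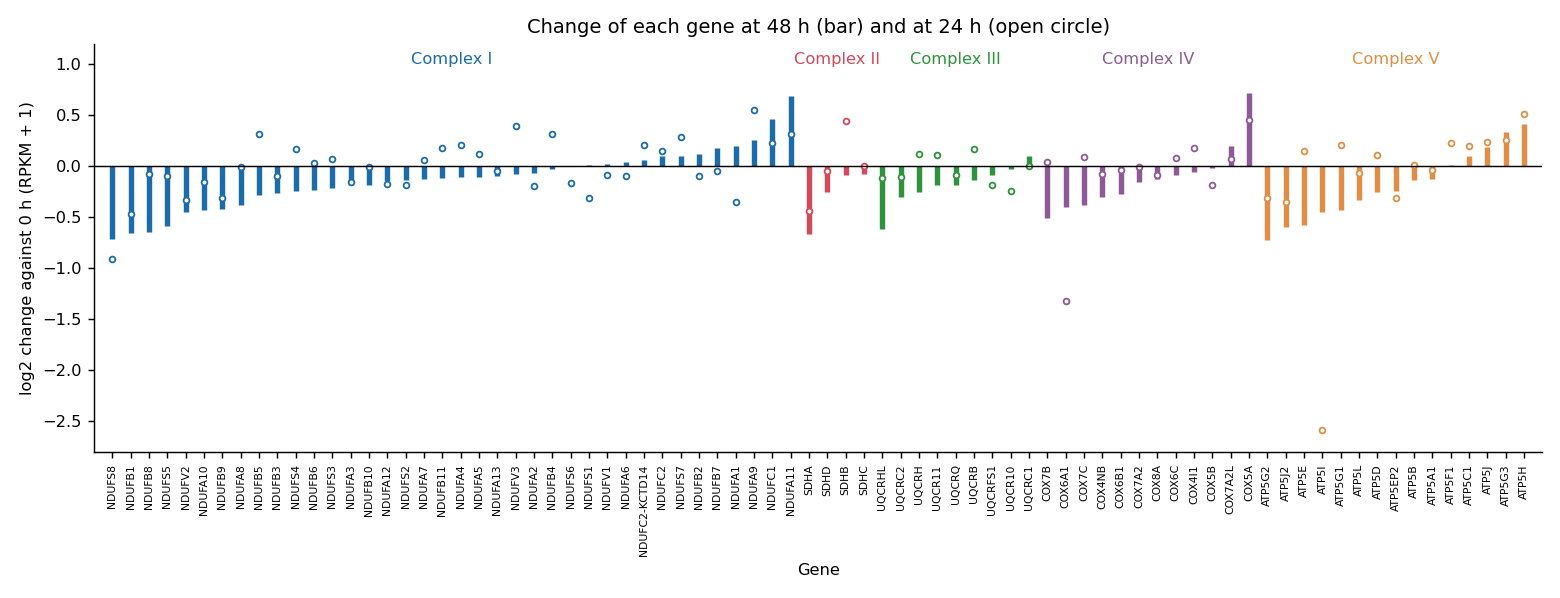
Log2 change of RPKM plus 1 against 0 h for each of the 78 genes, sorted within each complex, with the 48 h change as a bar and the 24 h change as an open circle. Bars below 0 outnumber those above 0 in each complex (57 of 78 in all), and the lowest circles are ATP5I at -2.58 and COX6A1 at -1.32.

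Among abundant genes outside the group, the class of shortest transcripts had the lowest median change at 48 h. The canonical transcript had a median of 763 bases over 77 of these genes and of 3319 bases over all listed genes. Among genes with a mean RPKM of at least 30 and a canonical transcript of at most 1000 bases, the median 48 h change was -0.16 for 39 oxidative phosphorylation genes and -0.15 for 317 other listed genes. Past the smaller limit downward were 28.2% of the former and 31.2% of the latter. For transcripts above 1000 and up to 2000 bases at the same level the medians were -0.16 for 10 of these genes and -0.07 for 673 others. Above 2000 and up to 4000 bases they were -0.04 for 8 and -0.02 for 984, and above 4000 bases -0.11 for 4 and -0.05 for 776. In the shortest class the medians were thus close, while 79.5% of the oxidative phosphorylation genes and 66.2% of the others were lower than at 0 h, and 7.69% and 11.7% were past the smaller limit upward. Among other genes with a mean RPKM under 30 the medians were 0.00, -0.02, 0.03 and 0.03 from the shortest to the longest class. The median of other short transcripts at that level was thus not lower at 48 h. The 6 oxidative phosphorylation genes of that length and level had a median of -0.33, and 4 of them were lower than at 0 h.

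**Figure D4:**
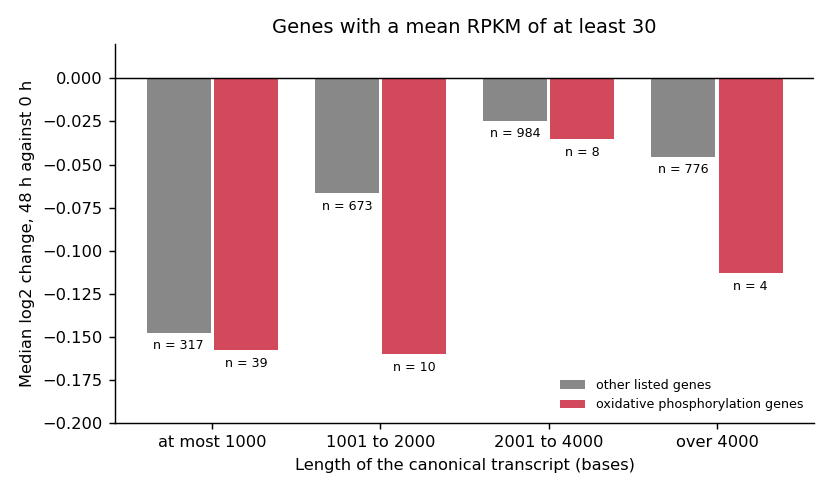
Median log2 change of RPKM plus 1 at 48 h against 0 h by length of the canonical transcript, for genes with a mean RPKM of at least 30, with oxidative phosphorylation genes in red and other listed genes in grey and the number of genes under each bar. In the class of at most 1000 bases both bars end near -0.15.

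Complex I, NADH dehydrogenase, takes electrons from NADH. Its 38 genes had median changes of 0.01, -0.05 and -0.11 at 12, 24 and 48 h, and 25 of them were lower at 48 h than at 0 h. None changed 2-fold, and at the smaller limit 8 were lower and 2 higher at 48 h, which is 21.1% and 5.26% beside 21.1% of all listed genes in each direction. NDUFS5, an accessory subunit on chromosome 1 (39491990 to 39500308 on hg19), was the most abundant of all 78 genes and ranked 41 among all listed genes. Its RPKM was 766, 874, 718 and 511 at 0, 12, 24 and 48 h, a change of -0.58 at 48 h. It was highest at 12 h and lowest at 48 h. NDUFA10, an accessory subunit and the least abundant of the 78, stood at 11.5, 10.2, 10.2 and 8.3 RPKM.

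NDUFS8 encodes a core subunit that holds iron-sulfur clusters. Its RPKM was 57.9, 47.3, 30.3 and 34.9 at 0, 12, 24 and 48 h, with changes of -0.91 at 24 h and -0.71 at 48 h. It was the complex I gene with the lowest change at either time. The accessory subunit gene NDUFB1 went from 63.8 to 52.0, 45.9 and 40.2 RPKM, lower in each successive library. NDUFB8, a membrane-arm subunit, went from 137 to 107, 130 and 87.2 RPKM. Both stood about 0.65 below their 0 h value on the log2 scale at 48 h.

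Other genes of complex I were higher. NDUFA11, a membrane-arm accessory subunit, had 25.5, 25.3, 32.1 and 41.6 RPKM, a change of 0.68 at 48 h. NDUFA9, which binds a nucleotide at the junction of the arms, had 11.9, 19.1, 17.9 and 14.4 RPKM, and was highest at 12 h with a change of 0.64. NDUFC1, a small membrane-arm subunit, had 28.2, 40.9, 33.2 and 39.4 RPKM. NDUFA4, listed here by its symbol although its protein is now assigned to complex IV, had 62.1, 69.9, 71.9 and 57.7 RPKM. NDUFC2 and the readthrough gene NDUFC2-KCTD14 share exons, so their reads cannot be assigned with certainty, and they summed to 67.9, 70.4, 77.2 and 71.8 RPKM. The 31 genes of complex I that never moved by 0.5, NDUFA10 and NDUFA4 among them, stayed within -0.45 and 0.46 at every time.

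Complex II, succinate dehydrogenase, also belongs to the citric acid cycle. SDHA, its catalytic flavoprotein (chromosome 5, 218418 to 257197 on hg19), stood at 19.6, 11, 14.2 and 12 RPKM at 0, 12, 24 and 48 h, with changes of -0.78, -0.44 and -0.66. SDHB, the iron-sulfur subunit, stood at 25.1, 33.8, 34.6 and 23.6 RPKM. The catalytic pair thus moved in opposite directions at 12 and 24 h. The membrane anchors stayed closer to level, with SDHC at 19.4, 19.0, 19.5 and 18.4 RPKM and SDHD at 45.7, 41.2, 44.3 and 38.1. All 4 genes were below their 0 h value at 48 h, 1 of them (SDHA) past the smaller limit. SDHA has near-identical copies in the genome, so its reads may be shared with them.

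Complex III, the cytochrome bc1 complex, had the lowest summed level at 48 h relative to 0 h. This came mostly from UQCRH, the hinge subunit, and UQCRHL, a near-identical intronless copy of it on chromosome 1 (16133664 to 16135843 on hg19). UQCRHL was listed at 692, 616, 637 and 451 RPKM at 0, 12, 24 and 48 h. UQCRH was listed at 459, 539, 498 and 386 RPKM. Reads cannot be assigned with certainty between these 2, and their sum was 1151, 1156, 1135 and 837 RPKM. The 8 genes other than UQCRHL stayed within -0.30 and 0.23 at every time. UQCRB, a ubiquinone-binding subunit and the least abundant of the complex, had 24.5, 25.1, 27.6 and 22.2 RPKM. The median change at 48 h over all 9 genes was -0.18, and 8 of them were lower than at 0 h.

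Complex IV, cytochrome c oxidase, held some of the most abundant genes. COX7C, a small membrane subunit on chromosome 5 (85913745 to 85916779 on hg19), had 717, 744, 764 and 551 RPKM. COX4I1, the ubiquitous form of subunit 4, had 297, 363, 336 and 286 RPKM. COX6B1, which faces the intermembrane space, had 193, 188, 188 and 159 RPKM. COX7B had 233, 231, 239 and 163 RPKM, a change of -0.51 at 48 h. These 4 genes were at their lowest at 48 h, and COX7B and COX7C were among the 3 complex IV genes past the smaller limit downward there.

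COX6A1 and COX5A moved apart. COX6A1, the ubiquitous form of subunit 6A (chromosome 12, 120875893 to 120878540 on hg19), had 15.0, 10.7, 5.4 and 11.1 RPKM at 0, 12, 24 and 48 h, a change of -1.32 at 24 h. It was the lowest of complex IV and overlaps another annotated gene on the same strand. COX5A (chromosome 15, 75212132 to 75230424 on hg19) had 18.6, 30.4, 25.8 and 31.3 RPKM, with changes of 0.68, 0.45 and 0.72. Its 48 h change was the highest of the 78 genes.

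For the paired forms of subunits, the form known from most tissues was the one listed. COX4I2, COX6A2, COX6B2, COX7A1 and NDUFA4L2, forms known from lung, muscle, testis or hypoxic cells, had no row in the table. COX7A2 had 171, 167, 170 and 153 RPKM, and COX7A2L, which encodes a factor that joins complexes III and IV, had 102, 105, 107 and 117. COX7A2L was 1 of 2 genes of the 78 that were higher in each successive library. COX4NB matches the rule by its name but encodes a membrane protein of the endoplasmic reticulum, and lay between 23.8 and 29.6 RPKM. With COX4NB, COX7A2L, the pseudogene ATP5EP2 and the readthrough gene NDUFC2-KCTD14 left out, 19 genes were past the smaller limit downward at 48 h and 5 upward as before, and the median 48 h change was -0.14 over the rest and -0.19 over complex V.

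Complex V had the lowest median change at 48 h, -0.24, after 0.11 at 24 h. Without the pseudogene ATP5EP2 the 48 h median was -0.19, close to the -0.18 of complex III. Of the 15 genes of complex V, 12 were lower at 48 h than at 24 h. ATP5I, which encodes subunit e of the membrane part (chromosome 4, 666225 to 668119 on hg19, minus strand), changed the most of the 78. Its RPKM was 32.0, 9.0, 4.5 and 23.2 at 0, 12, 24 and 48 h, with changes of -1.72, -2.58 and -0.45. The 24 h value was 14.1% of that at 0 h, and the 48 h value was back to 72.5%. The gene has a canonical transcript of 303 bases and overlaps MYL5 on the opposite strand.

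ATP5J2, subunit f of the membrane part and the most abundant gene of complex V, had 482, 457, 378 and 319 RPKM and was lower in each successive library. ATP5B, the catalytic β subunit, had 419, 410, 422 and 381 RPKM, a change of -0.14 at 48 h. ATP5H, a stalk subunit, was higher, at 234, 248, 336 and 313 RPKM. ATP5H overlaps and lies head to head with KCTD2, which stood at 23.2, 26.3, 37 and 34.6 RPKM, and whether reads are shared was not tested. ATP5E, the ε subunit, was listed at 175, 156, 194 and 117 RPKM and its processed pseudogene ATP5EP2 at 155, 107, 125 and 131. Reads of this pair cannot be assigned with certainty, and their sum was 330, 262, 319 and 248 RPKM.

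The c subunit, which forms the rotating ring, is encoded by 3 genes whose mature proteins are the same. ATP5G2 had 270, 232, 218 and 164 RPKM, lower in each successive library. ATP5G3 had 59.6, 66.8, 71.6 and 75.5 RPKM, higher in each. ATP5G1 had 22.4, 18.4, 26.0 and 16.4 RPKM. ATP5G2 therefore made up 76.7% of their summed RPKM at 0 h and 64.0% at 48 h, while ATP5G3 made up 16.9% and 29.5%. The sum went from 352 to 317, 315 and 256 RPKM.

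**Figure D5:**
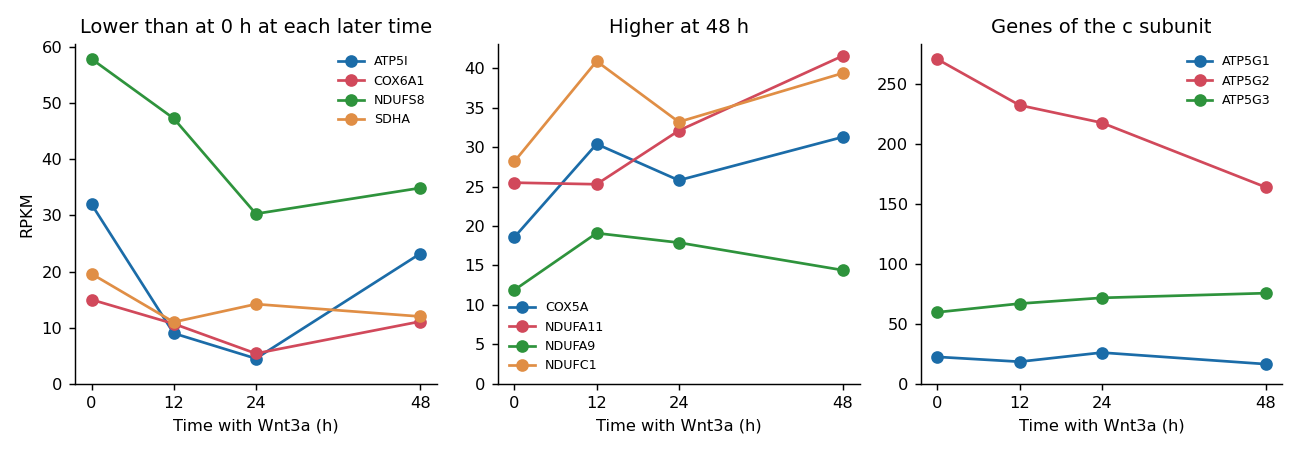
RPKM (linear axes from 0) at 0, 12, 24 and 48 h, 1 library per time, for 4 genes that were below their 0 h value at each later time, 4 that were higher at 48 h than at 0 h, and the 3 c subunit genes. ATP5I goes from 32.0 to 4.5 RPKM at 24 h and back to 23.2 at 48 h, and ATP5G2 goes down as ATP5G3 goes up.

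Of the 78 genes 6 were lower in each successive library (ATP5G2, ATP5J2, NDUFB1, NDUFV2, UQCRC2 and COX8A) and 2 were higher in each (ATP5G3 and COX7A2L). Over all listed genes these shares were 9.21% and 8.15%. At some time 18 of the 78 genes (23.1%) moved by at least 0.5 on the log2 scale, beside 33.1% of all listed genes, and the other 60 never did.

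Other genes of the pathway were taken from lists of their own, whose counts at 48 h stand beside 21.1% of all listed genes past the smaller limit in each direction. Of 7 genes for subunits, cytochrome c and an inhibitor whose symbols the rule leaves out, all were listed, 4 were past the smaller limit downward at 48 h and 0 upward, with a median change of -0.35. USMG5, another small subunit of the ATP synthase, had 167, 138, 86.6 and 74.5 RPKM, a change of -1.15. CYC1, the cytochrome c1 of complex III, had 76.3, 64.9, 68.6 and 57.3 RPKM. ATPIF1, the inhibitor of the ATP synthase, had 246, 223, 213 and 192. The highest changes of the 7 were those of C14orf2, a small subunit of the ATP synthase, at 125, 135, 122 and 124 RPKM, and NDUFAB1, the acyl carrier protein of complex I, at 91.4, 95.9, 85.9 and 81.8. The mitochondrially encoded subunits had 0 rows in the table, so nuclear and mitochondrial subunits were not compared here.

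The 76 listed genes of the mitochondrial ribosome, which translates the mitochondrially encoded subunits, had a median change of -0.13 at 48 h, close to that of the oxidative phosphorylation genes, with 17 (22.4%) past the smaller limit downward and 2 (2.63%) upward. MRPL21 was lowest, at 66.3, 43.3, 39.0 and 38.9 RPKM, and MRPL46 next, at 24.6, 22.0, 19.3 and 14.5. MRPS11 was highest, at 11.3, 15.3, 13.9 and 18.1. MRPL22 followed, at 9.6, 10, 11.3 and 12.7.

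The 17 genes of the citric acid cycle and pyruvate dehydrogenase had a median change of 0.06 at 48 h, with 2 past the smaller limit downward and 3 upward. SUCLA2, a subunit of succinyl-CoA synthetase, had 38, 57.9, 88.4 and 64.2 RPKM, and its partner SUCLG1 had 17.7, 26.4, 23.0 and 23.9. IDH3G, a regulatory subunit of isocitrate dehydrogenase, had 10.5, 6.4, 8.7 and 6.3. MDH2, malate dehydrogenase, had 110, 111, 107 and 87.9. The median of these genes thus lay above 0, and that of the respiratory complexes below it.

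Assembly factors were mixed. Of 12 listed factors for complex I 5 were past the smaller limit downward at 48 h and 3 upward, from NDUFAF2 at 30.3, 24.6, 28.3 and 19.0 RPKM and ECSIT at 34.1, 30, 31.4 and 23.6 to NDUFAF3 at 9.2, 9.1, 9.2 and 12.1 and NUBPL at 3.1, 4.6, 5.7 and 5.5. Of 18 listed factors for complexes III and IV 4 were lower and 3 higher. OXA1L, which inserts proteins into the inner membrane, had 57.0, 55.9, 53.7 and 37.9 RPKM, and SCO1, a copper chaperone, had 50.2, 47.2, 38.6 and 33.8. SCO2, a related copper chaperone, was higher, at 8.4, 9.8, 11.8 and 19.2 RPKM. FAM36A, also known as COX20, had 3.1, 8.7, 9.2 and 9.5.

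Of 5 factors for complexes II and V 1 was lower and 2 higher, with SDHAF1, which helps mature SDHB, at 25.5, 14, 18.5 and 18.9 RPKM and ATPAF2 at 4.0, 8.6, 6.0 and 6.5. SDHAF1 and SDHA were both lowest at 12 h. The remaining 2 named factors were SDHAF2, at 38.5, 44.1, 47.6 and 48.6 RPKM, and ATPAF1, at 20.5, 18.6, 22.1 and 22.0. Of 13 listed regulators of mitochondrial gene expression 4 were past the smaller limit downward at 48 h and 0 upward, with a median of -0.09. C10orf2, the mitochondrial helicase also called TWNK, had 28.5, 21.7, 24.5 and 18.9 RPKM, and the coactivator gene PPARGC1B had 5.1, 4.9, 4.7 and 3.6. TFB1M had 14.6, 16.9, 15.8 and 15.0, and GABPB1, a subunit of GABP, had 19.2, 17.5, 20.9 and 21.6. PPARGC1A was not listed.

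No SP5 peak was listed near these genes. SP5 ChIP-Seq peaks are regions enriched after immunoprecipitation of SP5, and lists were deposited for a sample labelled as SP5 ChIP at 0 h (542 peaks) and for one labelled at 24 h of Wnt3a (540 peaks). The headers go against these labels: both name the same ChIP library, set against a control without Wnt3a in the first list and with Wnt3a in the second, so the lists are not independent and are not read here as a time course. The headers also name that ChIP library h9, whereas the labels give the H1 line. None of the 78 genes (0) had a peak within 2000 bases of a start site in either list, beside 0.957% and 1.18% of 20175 protein-coding genes. Those shares come to fewer than 1 gene in 78, so the count of 0 is near the background. The nearest peak lay 9493 bases from NDUFV2 (chromosome 18, 9135826 to 9136939 on hg19), with 39 tags and a false discovery rate of 46.7% in 1 list and 27.7% in the other. The next were 22490 bases from ATP5D and 40620 bases from NDUFB8. The second WT series and the clones dZF1 and dZF2, in which SP5 lacks its zinc fingers, were deposited for 497 genes. Of these, 0 are among the 78, so the effect of the SP5 deletion on the 78 genes was not analysed here. The paper describes its expression data on the clones as covering genes with significant changes after Wnt3a. How the 497 were chosen was not checked here.

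Many of these genes share a start region with a neighbour. In the annotation 25 of the 76 protein-coding members with a canonical start (32.9%) lay head to head with another protein-coding gene, with starts at most 1000 bases apart or overlapping by at most 100 bases, against 13.5% of all 10459 listed protein-coding genes. Of the partners 20 were listed, COX4I1 and COX4NB facing each other among them, with a median change of -0.03 at 48 h. Of these 20, 11 were lower than at 0 h, beside 50.1% of all listed genes. On both sides 7 of 19 distinct pairs were lower, where 73.1% of the 78 genes were lower. The share of such pairs over all listed genes was not counted, so this is not read as a trait of the pairs. SDHA at -0.66 faced CCDC127 at 0.33, and NDUFB1 at -0.65 faced CPSF2 at -0.32. The highest partner change was that of RPS28 at 1.69, facing NDUFA7 at -0.12. The lowest was that of EEF1B2 at -1.18, facing NDUFS1 at 0.01. Of the 78 genes 33 were overlapped by another protein-coding gene on either strand. The share over all listed genes was not counted, so this is not read as a trait of the group. SDHA, NDUFA9, NDUFA11, NDUFB8, NDUFC1, ATP5J2 and ATP5E are among the 33. The libraries were made with a directional kit, but whether counting used the strand is not given in the sources used here, so values of overlapping genes are uncertain.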

How the data were processed

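RNA-Seq of the first WT series of H1 cells (0, 12, 24 and 48 h with 1 nM Wnt3a, 1 library each) was used. Per the study's methods, the authors aligned reads to hg19 with TopHat and computed RPKM with Cuffdiff; the annotation and the versions are not given in the sources used here. The deposited RPKM hold 1 decimal and 10975 genes, each reaching 4 RPKM in some library, without the reads behind them, so depth is unknown. The authors also deposited each value as a fraction of the gene's highest RPKM, and for the mutant clones a ratio to it, and neither was used beyond finding which genes are present. SP5 peaks were called by the authors with MACS 1.4.2 after Bowtie 0.12.7 and SAMtools 0.1.12a, per the submitters' processing notes, and were deposited with the tag count, a score taken from the p-value, the fold enrichment and the percent false discovery rate. The number of per-sample columns without an assigned sample was 0.

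The change was log2 of (RPKM + 1) against 0 h, called with no test at 2-fold, or at the smaller limit of 25% higher or 80% of the 0 h value. Symbols were matched to GENCODE release 44 on GRCh37 through RefSeq synonyms, for 10630 of 10975 genes and all 78 members, which gave positions and transcript lengths, and to RefSeq promoters on GRCh38.p14. Named were the members that changed by at least 0.5 at any time, the highest and lowest of each complex, paired isoforms, the SDH genes and, in each other list, the 2 highest and 2 lowest at 48 h; genes named beside a count or a neighbour were chosen after their values were seen. The members and lists were chosen with earlier results of these data known. Alternatives were other pseudocounts, a minimum mean RPKM of 10, scaling of libraries, other backgrounds, members left out and other peak distances. Python 3.11.15, numpy 2.4.6, pandas 2.3.3 and matplotlib 3.10.9 were used. Only the 2-fold call was tested on simulated data, with changes larger than most of those reported here. The smaller limit and the other steps were not tested in this way.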

Additional observations from a re-analysis of the deposited data

How the results depend on the processing

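Of 142 recomputed values 138 stayed within 0.05 (medians) or 1.5 times (counts) of those reported, and 4 moved. Some of the 138 could not move, so their number does not measure robustness. The minimum mean RPKM of 10 dropped none of the 78 genes, whose lowest mean was 10.05. Leaving members out did not change the background, and a subset of the peaks cannot raise a count of 0. The step from 0 to 12 h repeats the 12 h change. Among the 138, 3 medians changed sign, each of at most 0.01 in size: those of the 78 genes at 24 h and of all listed genes at 48 h with scaled libraries, and that of the background at 12 h with short, abundant genes. With libraries scaled by the median ratio, 8 rather than 5 genes were past the smaller limit upward at 24 h, where the scaling factors lay between 0.9998 and 1.0082, so genes near the limit crossed it. With a pseudocount of 5, 1 rather than 2 genes was at least 2-fold lower at 24 h. The median change of the background at 48 h went from 0.00 to -0.12 when it held only the 316 listed genes with transcripts of at most 1000 bases (24 of them oxidative phosphorylation genes). It went to -0.15 with the 317 other listed genes of at most 1000 bases and a mean RPKM of at least 30, a setting chosen after seeing the data. No paired analysis was possible because each time has 1 library and the comparison has no replicate numbers to pair. With 1 library per time and no read counts, neither biological spread nor counting error can be given for any change, and a value as low as that of ATP5I at 24 h rests on an unknown number of reads.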
